A study of Mus musculus with 11 samples.

Results

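The expression of 10 genes of cellular senescence and the p53 pathway was examined in whole thoracic aortas of old male mice after dietary nitrate. The genes are Cdkn1a, Cdkn1b, Cdkn1c, Cdkn2a, Cdkn2b, Trp53, Mdm2, Gdf15, Lmnb1 and Glb1, and they were chosen by name from the 36413 distinct names on the array. Nitrate treated mice (n = 5) were C57BL/6 males of 20 months that drank water with 1 g/L sodium nitrate for 8 weeks. Control mice (n = 6) were males of the same strain and age without nitrate, and neither group carried an engineered allele. The methods of the study name sodium chloride for the controls, whereas the sample labels do not. The labels describe these arrays as earlier samples that were analysed again, and they do not tell if the nitrate treated mice were housed alongside them. RNA of each aorta was labeled and measured on its own one-color array, and each value below is a log2 signal after quantile normalization over the 11 arrays.

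Cellular senescence is a lasting arrest of cell division that is entered after DNA damage, telomere loss or other stress, and senescent cells gather in aging arteries. The protein p53, encoded by Trp53, is stabilized by damage and switches on Cdkn1a, whose product p21 blocks cyclin dependent kinases. It also switches on Mdm2, whose product marks p53 for degradation and closes a feedback loop. A separate locus encodes p16, p19ARF and p15, from the genes Cdkn2a and Cdkn2b, and p16 and p15 keep the retinoblastoma protein active by inhibiting CDK4 and CDK6.

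Both genes with a difference past the limits were inhibitors of cyclin dependent kinases, and both were lower in nitrate treated mice. Cdkn1a fell by 0.50 on the log2 scale and Cdkn2b fell by 0.41, whereas Trp53, Mdm2, Cdkn1b, Cdkn1c, Cdkn2a, Gdf15, Lmnb1 and Glb1 did not pass. The limits were those of the study, namely a P value in the moderated test of limma of less than 0.05 before adjustment, together with a change of more than 1.2-fold. Of the 10 genes, 2 passed (20%) and 0 of these were higher, while 1626 of 18294 detected names passed (8.89%), and 845 of them were lower (4.62%). With 10 genes, the difference between these shares rests on very few genes. No member passed an adjusted P value of 0.05 (limma, Benjamini-Hochberg), which 0.0127% of all detected transcripts did, and the lowest adjusted value among the members was 0.152. The median difference of the 10 genes was 0.09, with 7 above and 3 below zero, beside a median of 0.02 over all detected names.

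The sequences of the promoters of Cdkn1a and Cdkn2b are shown first, since these are the genes that differed. RefSeq lists 2 starts of Cdkn1a in assembly GRCm38.p6, and the 250 bases before each start are given 5′ to 3′ on the plus strand of chromosome 17. The upstream window lies at chr17:29090729-29090978 and the downstream window at chr17:29093519-29093768. The window of Cdkn2b lies at chr4:89311033-89311282 and is given on the minus strand. Capitals mark a p53 response element in the upstream window of Cdkn1a and GC boxes (GGGCGG on either strand) in the downstream window.
Cdkn1a, upstream start: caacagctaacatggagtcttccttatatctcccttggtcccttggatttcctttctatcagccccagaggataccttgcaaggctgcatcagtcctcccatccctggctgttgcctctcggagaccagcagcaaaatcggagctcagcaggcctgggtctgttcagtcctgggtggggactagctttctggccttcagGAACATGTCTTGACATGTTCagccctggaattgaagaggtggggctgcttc
Cdkn1a, downstream start: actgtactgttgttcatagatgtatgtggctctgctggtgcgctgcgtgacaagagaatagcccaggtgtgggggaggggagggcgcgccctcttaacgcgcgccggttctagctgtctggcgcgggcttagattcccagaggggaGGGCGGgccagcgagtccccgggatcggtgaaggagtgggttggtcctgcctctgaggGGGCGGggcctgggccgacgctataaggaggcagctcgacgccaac
Cdkn2b: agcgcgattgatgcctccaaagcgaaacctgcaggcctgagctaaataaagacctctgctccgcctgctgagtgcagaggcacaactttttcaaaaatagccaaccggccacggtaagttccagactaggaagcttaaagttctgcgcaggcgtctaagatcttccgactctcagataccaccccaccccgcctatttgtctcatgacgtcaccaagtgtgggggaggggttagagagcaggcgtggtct

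The p53 response element was searched by its consensus over 20 bases without a spacer, on both strands, with at most 1 mismatch. It was found in 25 of all 32851 promoter windows of the same length (0.0761%) and in 1 of the 11 windows of the members, that of the upstream start of Cdkn1a, between 51 and 32 bases before the start and with 1 mismatch. GC boxes were found in 4 of the 11 windows and in 32.7% of all windows. The E-box CACGTG was found in 2 of the 11 windows, one of Gdf15 and that of Glb1, and in 6.02% of all windows. Windows were given for 8 of the 10 genes, and Cdkn1c and Lmnb1 had no entry in the table. The window of Cdkn2b held none of these motifs, which says only that these letters are not in its 250 bases. A match is a description of the letters and no evidence of binding.

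The arrays held 15 probes of the 10 genes, and 11 of them met the detection rule, which asked for a found spot with a signal well above background in 5 or more mice of the same group. Each gene had at least 1 such probe. Of the other 4 probes, 1 of Cdkn1a and 1 of Cdkn1b were well above background on all 11 arrays but their spots were not found on enough of them, and 1 each of Cdkn1a and Cdkn2a were not well above background on any array. Each probe is 60 bases long. Over the 11 arrays the signal had a 75th percentile from 213 to 289, and nitrate and control arrays were hybridized together on each of the 3 slides. Slides 1, 2 and 3 held 2, 1 and 2 nitrate arrays, and each slide held 2 controls. Each difference within slide 2 therefore rests on nitrate treated mouse 3 alone. Column 3 of the slides held the 6 controls and only them, so slide position and treatment cannot be told apart.

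The pairs of probes of Cdkn1a and Cdkn2b carry the comparisons below, so the first 30 bases of each are shown in the direction of the transcript. In Cdkn1a, the probe that the files assign to both RefSeq transcripts lies at chr17:29237377-29237436 of mm9, and the probe named for transcript variant 2 lies 9391 bases before it, at chr17:29227986-29228045. In Cdkn2b, both probes are named for the same RefSeq transcript and lie 444 bases apart, at chr4:88952276-88952335 and chr4:88952720-88952779.
Cdkn1a, both transcripts: ctaagggagctcacaggacactgagcaatg
Cdkn1a, variant 2: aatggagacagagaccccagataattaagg
Cdkn2b, brighter probe: ccagtgatgaattgtagtggtagcaggtta
Cdkn2b, dimmer probe: ttgagcctcaccttgaagccaaggggatca

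Cdkn1a encodes p21, the inhibitor through which p53 stops the cell cycle. Its log2 signal in the nitrate treated mice was 9.18, 9.21, 9.30, 8.83 and 9.30, and in controls it ranged from 9.39 to 9.97 with a median of 9.64. Every nitrate treated mouse lay below every control. Among the nitrate treated mice, mouse 4 lay apart at the low end, while controls 2 and 5 were highest. The mean was 9.16 ± 0.19 (SD, n = 5) against 9.67 ± 0.23 (SD, n = 6), a fold change of 1.42 with a 95% confidence interval of the log2 difference from -0.77 to -0.23. The unadjusted limma P value was 0.00160 and the adjusted value 0.152 over the 23632 detected transcripts. A two-sided exact permutation test over the 462 divisions of the mice gave 0.00433, where the smallest possible value is 0.00216. Groups that did not overlap with the lower values in nitrate were seen for 1 of the 10 genes and for 1.16% of all detected names. The difference was -0.43, -0.34 and -0.67 within slides 1, 2 and 3, where slide 2 held 1 nitrate treated mouse. It lay between -0.56 and -0.42 with each mouse left out in turn.

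The probe named for Cdkn1a variant 2 did not follow this difference. Its log2 signal was 6.01, 6.39, 6.24, 5.67 and 5.64 in nitrate treated mice and ranged from 5.63 to 6.25 in controls, with a median of 5.96. The groups overlapped over nearly their whole range. The difference was 0.04 with a 95% confidence interval from -0.31 to 0.39 (exact permutation test, two-sided, p = 0.803). The probe was outside the detection rule, since its spot was found and above background in only 4 mice of each group, and its value comes from a fit over all probes. The difference between the effects at these 2 probes was -0.54 (exact permutation test, p = 0.0195, and 0.0487 adjusted over the 5 pairs of probes compared, which were chosen after their values had been seen).

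**Figure D1:**
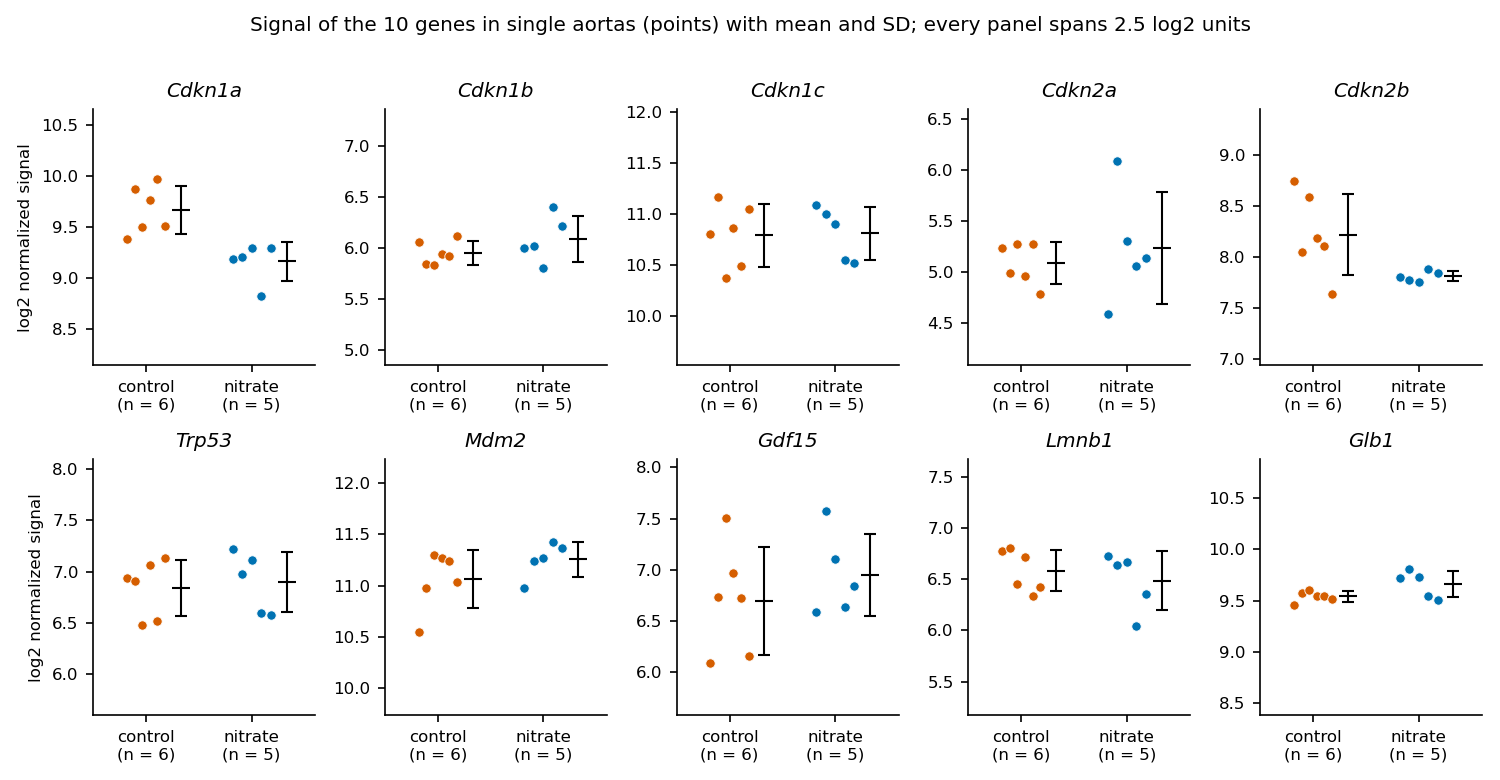
Log2 normalized signal of the brightest detected probe of each of the 10 genes in single aortas, controls in orange (n = 6) and nitrate treated mice in blue (n = 5), with the mean and SD in black. The 5 nitrate values of Cdkn1a lie between 8.83 and 9.30, all below the lowest control at 9.39, and the groups overlap for the other genes.

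Cdkn2b encodes p15, an inhibitor of CDK4 and CDK6 that is known to respond to TGF-beta. At its brighter probe the log2 signal was 7.81, 7.77, 7.75, 7.88 and 7.85 in nitrate treated mice, and it ranged from 7.64 to 8.74 in controls with a median of 8.15. The nitrate treated mice lay close together, and 5 of 6 controls lay above all of them. Control 6 was the lowest of all mice, so the groups overlapped. The mean was 7.81 ± 0.05 (SD, n = 5) against 8.22 ± 0.40 (SD, n = 6), a fold change of 1.33. The 95% confidence interval of the log2 difference ran from -0.77 to -0.05. The unadjusted limma P value was 0.0293, the adjusted value 0.309 and the exact permutation P value 0.0476.

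The dimmer Cdkn2b probe gave the same direction. Its log2 signal was 5.42, 5.75, 5.48, 5.28 and 5.57 in nitrate treated mice and ranged from 5.70 to 6.53 in controls, with a median of 5.83. It was 0.48 lower in nitrate treated mice (limma, unadjusted p = 0.00898, adjusted 0.232, and 0.0130 in the exact permutation test). Nitrate treated mouse 2 lay above the 2 lowest controls, so the groups overlapped, and controls 1 and 3 were the highest mice at both probes. The effects at the 2 probes differed by 0.07 (exact permutation test, p = 0.548), less than the mice of a group differed among themselves. Both probes read the same RNA samples and are no independent replicates.

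The call of Cdkn2b was lost without any of 4 single mice. Without control 1 the difference was -0.30 (limma's moderated test, P value 0.0556) and without control 3 it was -0.33 (limma's moderated test, P value 0.0640). In the same test, the difference without nitrate treated mouse 2 was -0.40, with a P value of 0.0526. Without nitrate treated mouse 3 it was -0.39, with a P value of 0.0550. Without control 6, the lowest control, it was -0.52 with a P value of 0.00226. Within slides 1, 2 and 3 it was -0.60, -0.16 and -0.48. With the mean of its 2 detected probes in place of the brighter one, the difference was -0.44 (limma, unadjusted p = 0.0119).

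**Figure D2:**
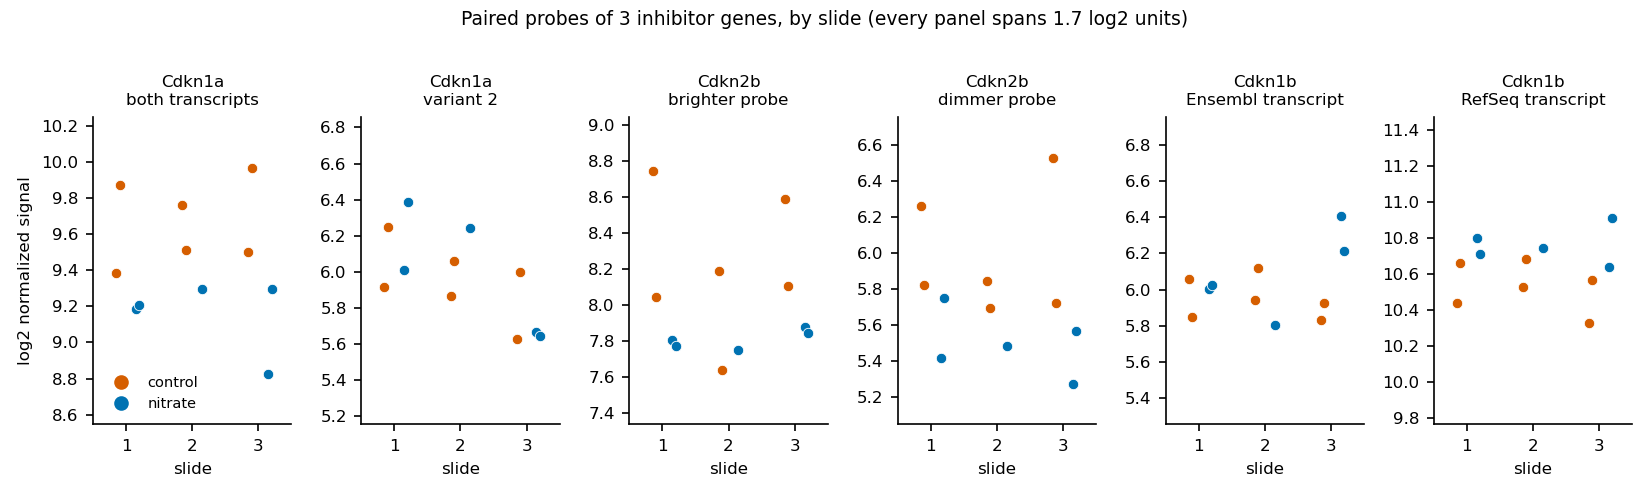
Log2 normalized signal at the pairs of probes of Cdkn1a, Cdkn2b and Cdkn1b on slides 1, 2 and 3, each point a mouse, controls in orange and nitrate treated mice in blue. At the Cdkn1a probe of both transcripts the nitrate treated mice lie below the controls on each slide, which they do not at the variant 2 probe.

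Cdkn2a encodes p16 and, in another reading frame, p19ARF, which holds back Mdm2, and p16 is widely used as a marker of senescent cells. The log2 signal of its detected probe was 4.59, 6.09, 5.30, 5.06 and 5.14 in nitrate treated mice and ranged from 4.78 to 5.28 in controls, with a median of 5.11. Nitrate treated mouse 2 was the highest and nitrate treated mouse 1 the lowest of all mice. The difference was 0.15 with a 95% confidence interval from -0.32 to 0.61 (limma, unadjusted p = 0.497), and without nitrate treated mouse 2 it was -0.064. The difference of Cdkn2b minus that of Cdkn2a was -0.56 (exact permutation test, p = 0.0455, adjusted over the 5 pairs 0.0758), so these neighbours were not shown to differ after adjustment. The Cdkn2a signal is low, and its other probe was not well above background in any mouse. Both probes are named for the same RefSeq transcript, and whether they read p16, p19ARF or both was not examined.

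Cdkn1b encodes p27, which restrains CDK2 in resting cells. At the detected probe, named for an Ensembl transcript, the log2 signal was 6.00, 6.02, 5.81, 6.41 and 6.21 in nitrate treated mice and ranged from 5.83 to 6.12 in controls, with a median of 5.93. The difference was 0.14 with a 95% confidence interval from -0.09 to 0.36 (limma, unadjusted p = 0.215). Within slides 1, 2 and 3 it was 0.059, -0.23 and 0.43, and with each mouse left out it lay between 0.057, without nitrate treated mouse 4, and 0.21, without nitrate treated mouse 3. The probe named for the RefSeq transcript was bright, but its spot was found and above background in only 3 nitrate treated mice and 4 controls. There the log2 signal was 10.80, 10.71, 10.75, 10.64 and 10.91 in nitrate treated mice and ranged from 10.33 to 10.68 in controls, with a median of 10.55. Nitrate treated mouse 4 alone lay within the range of the controls. This probe was 0.23 higher (limma over all probes, unadjusted p = 0.0146, adjusted 0.482, and 0.0130 in the exact permutation test), which at a fold change of 1.17 did not reach the limit. The effects at the 2 probes differed by 0.09 (exact permutation test, p = 0.487).

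Cdkn1c encodes p57, an imprinted inhibitor expressed from the maternal copy. The log2 signal lay between 10.53 and 11.09 in nitrate treated mice, with a median of 10.90, and ranged from 10.38 to 11.17 in controls, with a median of 10.83. The nitrate treated mice fell within the range of the controls. The difference was 0.02 with a 95% confidence interval from -0.33 to 0.37 (limma, unadjusted p = 0.901).

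Trp53 encodes p53 itself. Signals of Trp53 on the log2 scale were 7.22, 6.97, 7.12, 6.60 and 6.58 in nitrate treated mice and ranged from 6.48 to 7.13 in controls, with a median of 6.92. The groups overlapped, and in both groups the mice on slide 3 were the lowest. The difference was 0.06 with a 95% confidence interval from -0.28 to 0.40 (limma, unadjusted p = 0.716). The activity of p53 is known to be set mostly by the stability of the protein, which was not measured.

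Mdm2, a target of p53 and its main inhibitor, had a log2 signal of 10.98, 11.24, 11.27, 11.42 and 11.37 in nitrate treated mice and a range from 10.55 to 11.29 in controls, with a median of 11.14. Control 1 was lowest and nitrate treated mice 4 and 5 were highest. The difference was 0.20 with a 95% confidence interval from -0.10 to 0.49 (limma, unadjusted p = 0.174), and without control 1 it was 0.09. Cdkn1a and Mdm2 are both known targets of p53 and their differences had opposite signs. The difference of Cdkn1a minus that of Mdm2 was -0.70 (exact permutation test, p = 0.00433, adjusted over the 5 pairs 0.0216), and this pair too was chosen after the values had been seen.

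Gdf15, a secreted stress cytokine of the TGF-beta family, varied most between controls. On the log2 scale its signal was 6.58, 7.57, 7.11, 6.64 and 6.84 in nitrate treated mice and ranged from 6.09 to 7.51 in controls, with a median of 6.73. Control 3 was nearly as high as the highest nitrate treated mouse. The difference was 0.26 with a 95% confidence interval from -0.30 to 0.81 (limma, unadjusted p = 0.338). Without nitrate treated mouse 2 it was 0.10, without control 1 it was 0.13, without control 6 it was 0.15 and without control 3 it was 0.42. Within slides 1 and 2 it was 0.67 and 0.55, and within slide 3 it was -0.37.

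Lmnb1 encodes lamin B1, a protein of the nuclear lamina that is lost in senescent cells. The log2 signal of Lmnb1 was 6.73, 6.64, 6.67, 6.04 and 6.35 in nitrate treated mice and ranged from 6.34 to 6.81 in controls, with a median of 6.58. Nitrate treated mouse 4 was the lowest of all mice. The difference was -0.10 with a 95% confidence interval from -0.40 to 0.20 (limma, unadjusted p = 0.486), and without nitrate treated mouse 4 it was 0.013.

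Glb1 encodes the lysosomal beta-galactosidase whose activity is stained to find senescent cells. The log2 signal of Glb1 was 9.72, 9.81, 9.73, 9.54 and 9.51 in nitrate treated mice and ranged from 9.46 to 9.61 in controls, with a median of 9.55. Nitrate treated mice 1, 2 and 3 lay above all controls, and the other two lay among them. The difference was 0.12 with a 95% confidence interval from -0.03 to 0.27 (limma, unadjusted p = 0.106). Within slides 1, 2 and 3 it was 0.25, 0.20 and -0.05. Beyond Cdkn1a and Cdkn2b, a P value that misses the limit does not show that the groups were alike, and the intervals give the size of difference that 11 arrays leave possible.

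**Figure D3:**
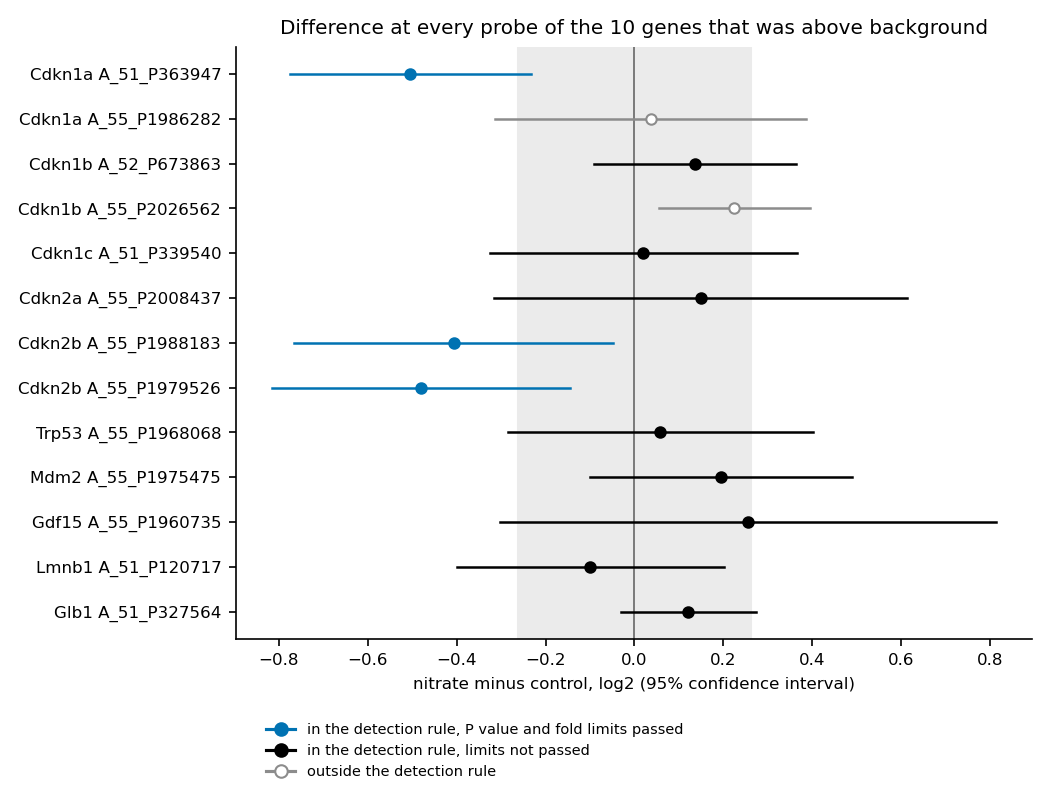
Nitrate minus control difference on the log2 scale with its 95% confidence interval at the 13 probes of the 10 genes that were above background, with differences smaller than a fold change of 1.2 shaded. The probe of both Cdkn1a transcripts and both Cdkn2b probes lie left of the shaded band with intervals below zero, and open symbols mark probes outside the detection rule.

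Of 18 detected p53 regulators, 1 rose and 1 fell, with a median difference of 0.07, beside the 8.89% of all detected names that passed in either direction. Atm, the kinase that reports DNA breaks to p53, rose by 0.27, and Hipk2, a kinase that modifies p53, fell by 0.34 on the log2 scale. The p53 relatives Trp63 and Trp73 had differences of -0.14 and 0.05, and neither passed. Of 24 detected p53 target genes other than the members, only Perp, which encodes a membrane protein of cell adhesion, passed, at 0.30 higher. Bax, which promotes cell death, was next by P value, at 0.15 (limma, unadjusted p = 0.039), and the median of these 24 targets was 0.06.

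Among the cell cycle genes downstream of the inhibitors, Rb1, which encodes the retinoblastoma protein, was the 1 of 15 detected cyclin, CDK and RB family genes that passed. It fell by 0.29. The second smallest P value in that list was that of Cdk4, with a difference of 0.16 that did not pass. Of the other INK4 inhibitors, Cdkn2c, encoding p18, fell by 0.35, and Cdkn2d, encoding p19, had a difference of 0.12. None of the 16 detected proliferation genes passed both limits, and their median difference was 0.07. Plk1 and Mcm6 had the smallest P values there, with differences of 0.26 and 0.23.

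Of 20 detected senescence secretory genes, 1 rose and 1 fell, with a median of 0.04. Plat, encoding tissue plasminogen activator, rose by 0.35, and Igfbp3, which binds insulin-like growth factors, fell by 0.53. The interleukins Il6, Il1a and Il1b, which define this secretion in many cells, were not detected under the rule. None of the 13 nuclear lamina and chromatin genes passed, where Emd and Tmpo were 0.20 and 0.18 higher. The lysosomal genes had a median difference of 0.04, and Ctsa, encoding cathepsin A, was 0.25 higher at a fold change of 1.19, which did not reach the limit. Of 13 genes of the integrated stress response, which also controls Gdf15, only Asns, encoding asparagine synthetase, passed and fell by 0.46, and the kinase gene Eif2ak3 was 0.20 higher. In each of these lists the count is read against the 8.89% of all detected names that passed, and no list had more than 2 genes past the limits.

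**Figure D4:**
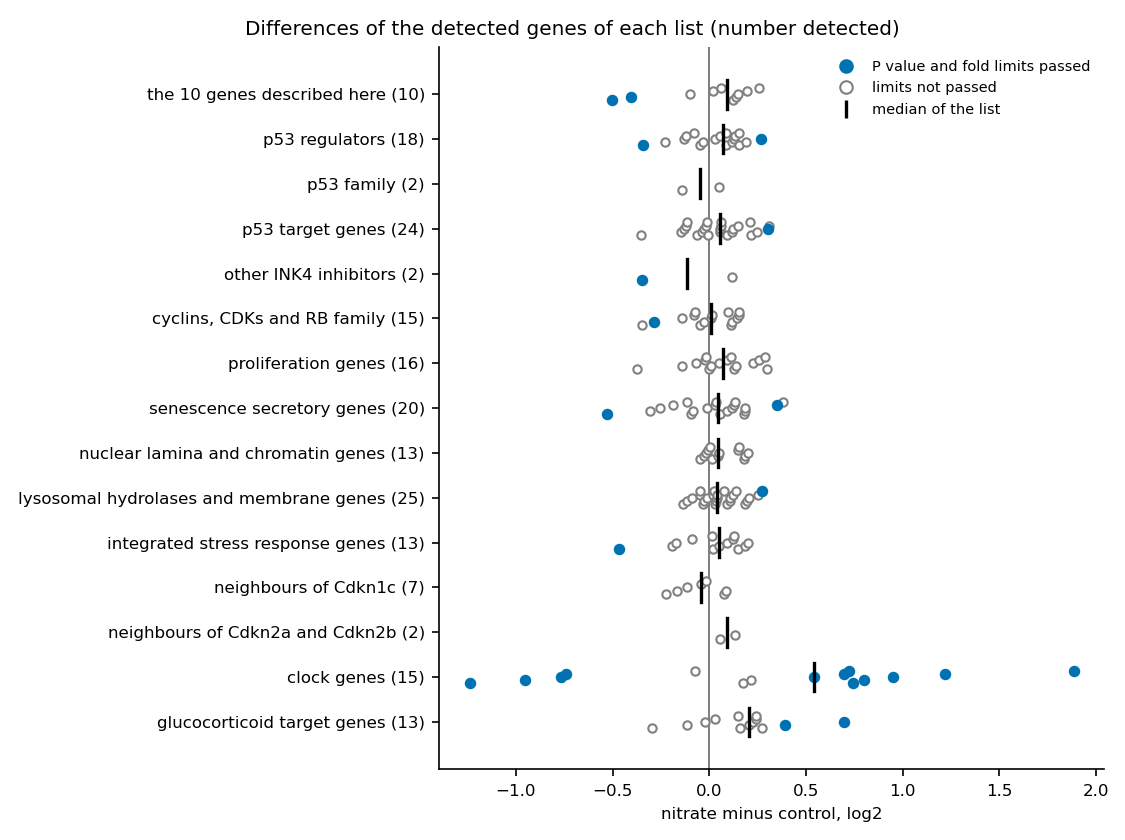
Nitrate minus control difference on the log2 scale of each detected gene, 1 row per list with the number detected, filled where the P value and fold limits were passed and with a black bar at the median. The genes described here and the lists around them lie mostly within 0.4 of zero, and the clock genes spread from -1.24 to 1.88.

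Other genes that moved with the treatment are given beside Cdkn1a and Cdkn2b as measured. Of 15 detected clock genes, 8 rose and 4 fell, led by Gm129 at 1.88, Arntl at -1.24, Dbp at 1.22, Npas2 at -0.95 and Per2 at 0.95. The labels give no time of day of the tissue collection. Of 13 glucocorticoid target genes, Per1, which is also a clock gene, rose by 0.70 and Fkbp5 rose by 0.39. Their part in the differences of Cdkn1a and Cdkn2b was not tested.

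Markers of other cell types were also measured, since a whole aorta holds smooth muscle, endothelium and fibroblasts. The methods state that fat and connective tissue around the vessel were removed. In such bulk samples fewer cells of a type and less RNA per cell cannot be told apart. All 8 smooth muscle markers were detected, and 1, Lmod1, passed and rose by 0.31, whereas none of the 8 endothelial, 8 fibroblast or 8 macrophage markers passed both limits. All 8 fibroblast markers had differences above zero, with a median of 0.17, and their mean level ranged from -0.098 to 0.23 in nitrate treated mice and from -0.23 to -0.011 in controls. All 8 macrophage markers were also above zero, with a median of 0.095, while 3 endothelial markers were above and 5 below. All 10 adipocyte markers were detected, and 5 fell, among them Adipoq by 0.49 and Retn by 0.84, with a median of -0.31. The mean adipocyte marker level, relative to all 11 arrays, ranged from -0.46 to just below zero in nitrate treated mice and from -0.12 to 0.46 in controls. Of 8 brown adipocyte markers, 3 were above and 5 below zero and 1 passed, Cidea, which fell by 0.52, whereas Ucp1, which defines these cells, had a difference of 0.23, and the detected B cell markers Cd79b and Igj fell by 0.81 and 1.26, while Cd79a, Ms4a1 and Pax5 were not detected. The heart muscle marker Ryr2 rose by 0.48, and the heart muscle mean ranged from -1.15 to 3.53 in nitrate treated mice and from -1.70 to 2.93 in controls. Of the 5 detected Schwann cell markers Mbp fell by 0.46, and no detected marker of T cells, skeletal muscle or erythroid cells passed. The part of these cell types in the lower Cdkn1a and Cdkn2b was not tested.

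With each mouse left out in turn, Cdkn1a passed both limits each time. The signs of Cdkn1c, Trp53, Cdkn2a and Lmnb1 changed with the mouse left out, and those of Cdkn1b, Mdm2, Gdf15 and Glb1 did not, although Cdkn1b, Gdf15 and Glb1 had a negative difference within 1 of the 3 slides.

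**Figure D5:**
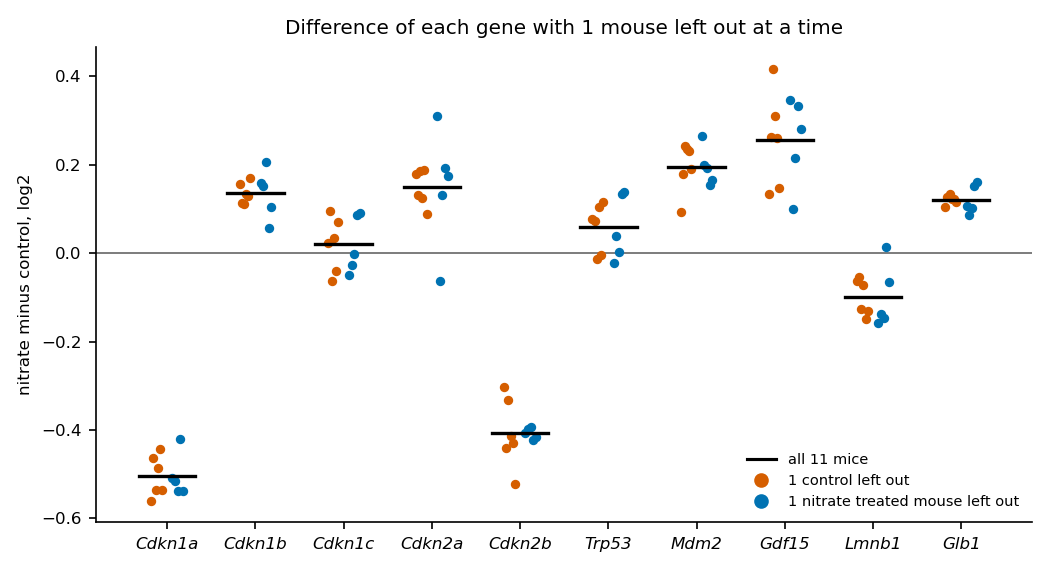
Nitrate minus control difference on the log2 scale of each gene with all 11 mice (black bars) and with 1 control (orange) or 1 nitrate treated mouse (blue) left out. Cdkn1a stays between -0.56 and -0.42 and Cdkn2b between -0.52 and -0.30, and the points of Cdkn1c, Trp53, Cdkn2a and Lmnb1 lie on both sides of zero.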

How the data were processed

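RNA of 11 aortas was measured on Agilent one-color arrays, 5 from nitrate treated mice and 6 from controls. The authors deposited spot intensities and quality flags from Feature Extraction, with the local background subtracted and no scaling between arrays, and a table of log2 values. That deposited log2 table correlated at 0.9999 or above with the values computed here on each array.

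Signals were raised to at least 1, put on the log2 scale, averaged over spots of a probe without outlier-flagged spots and quantile normalized. A probe was detected where the spots of 5 or more mice of one group were found with a signal well above background, and the 23632 detected probes were tested with lmFit and eBayes (R 4.3.3, limma 3.58.1), with Benjamini-Hochberg adjustment. A call needed P less than 0.05 before adjustment and more than 1.2-fold change. Each gene is represented by its brightest detected probe. For undetected probes the model was fitted to all probes. Single differences have two-sided exact permutation tests. The test was tried on simulated data. P values set a group difference against the spread between these mice, and the number of arrays limits the precision.

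The members and lists were chosen with earlier results of these data known. Genes named were the members, up to 5 called genes of each list with the largest differences, the 2 with the smallest P values where fewer than 2 were called, and neighbours of Cdkn1c, Cdkn2a and Cdkn2b, except that some list genes are not reported here. Marker genes were named where they passed, except the adipocyte markers Lipe, Pnpla2 and Cfd, which also passed and fell. Some markers that define a cell type were also named where they were not detected or, for Ucp1, did not pass. Gene names are those of the files, with 5 list genes matched through older names. Probe positions are in mm9, and promoter sequences come from RefSeq (GRCm38.p6), without exon positions. Alternatives covered scaling, background correction, an offset of 16, the deposited table, the prior variance, flagged spots, detection rules, slide and replicate blocks, thresholds, the choice of probe, and each array left out. Detection without the spot-found flag was added after the data were seen. The sixth nitrate array named in the methods was not analysed here.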

Additional observations from a re-analysis of the deposited data

Results flagged for a closer look

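Nitrate treated mouse 4 had a Cdkn1a log2 signal of 8.83, apart from the next lowest nitrate treated mouse at 9.18. The gap was 0.761 of the whole range of the 5 nitrate treated mice. Of 22 groups of values examined, 1 lay apart in this way, and 1.1 are expected by chance. Without this mouse the Cdkn1a difference was -0.42 (limma, unadjusted p = 0.00433).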

How the results depend on the processing

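The count of 2 members past the limits was the same under 75th percentile scaling, normexp background correction, the deposited log2 table, an offset of 16, other detection rules, kept flagged spots, a trended and robust prior variance, slide as a block and the mean over probes. It was 0 at an adjusted P value under 0.05, where 3 of all transcripts passed, and between 1 and 2 with each array left out, since Cdkn2b lost its call without nitrate treated mouse 2 or 3 or control 1 or 3. The count of all transcripts, 2128, became 1219 with normexp, which was run with an offset of 50, and 1875 with an offset of 16 without normexp. The parts of normexp and of its offset were not separated. The count was 3224 without a detection filter and 3394 without the fold limit, and lay between 1596 and 2424 with each array left out. Over the alternatives with all arrays and no replicate block, the Cdkn1a difference lay between -0.50 and -0.48 and the Cdkn2b difference between -0.45 and -0.33. With the detection rule that ignores the spot-found flag, the RefSeq probe represents Cdkn1b, at 0.23. With an array left out, differences changed sign for 4 genes and lay between -0.063 and 0.095 for Cdkn1c, -0.022 and 0.14 for Trp53, -0.064 and 0.31 for Cdkn2a, and -0.16 and 0.013 for Lmnb1. Within single slides the sign also changed. On slide 2, which held 1 nitrate array, it changed to -0.23 for Cdkn1b, -0.055 for Cdkn1c and 0.10 for Lmnb1. On slide 3 it changed to -0.18 for Cdkn2a, -0.37 for Gdf15 and -0.053 for Glb1. The cause was not tested.

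Between arrays with the same replicate number, the deviations from the group mean had correlations between -0.14 and 0.18, with 2 of 5 above 0.1. They were 0.010, 0.12 and 0.18 for numbers 1, 2 and 5, whose arrays shared a slide. For numbers 3 and 4, whose arrays lay on different slides, they were -0.14 and -0.13. Whether the numbers stand for more than the slide was not tested. With the replicate number as a block, 2 members and 2433 transcripts passed, and the Cdkn1a and Cdkn2b differences were -0.54 and -0.52, as without control 6, which has no partner and adds nothing under the block.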

Other observations

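The detected genes next to 3 of the inhibitors on the chromosome did not pass both limits. Around the imprinted Cdkn1c, the differences of 7 genes had a median of -0.04. They were -0.22 for Slc22a18 (limma, unadjusted p = 0.041), -0.17 for H19, -0.11 for Nap1l4, -0.04 for Kcnq1ot1, -0.02 for Cars, 0.08 for Tssc4 and 0.08 for Cd81. Beside Cdkn2a and Cdkn2b, Mtap had a difference of 0.06 and Ifna1 one of 0.13, where Cdkn2b itself fell by 0.41.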
